A study of Mus musculus with 2 samples.

Results

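Circadian clock genes were examined in mammary basal cells of mice with and without macrophage depletion. The 10 genes were the core clock and output genes *Arntl* (also called *Bmal1*), *Clock*, *Npas2*, *Per1*, *Per2*, *Per3*, *Cry1*, *Cry2*, *Nr1d1* and *Dbp*. They were chosen by symbol as a guide to differences in collection time, and all 10 were found among the 49492 genes of the count table. The Ctrl basal library came from wild-type mice labelled as untreated, which the series design describes as given saline. The CL basal library came from wild-type mice given clodronate liposomes (CL), lipid vesicles that kill the macrophages that take them up. Both were labelled day 7, and the study used adult females, repeated intraperitoneal doses of CL and flow sorting for lineage-negative CD24+CD29hi cells, the basal layer of the mammary epithelium. Each group had 1 library. How many mice went into a library, and at which time of day the glands were taken, were not given in the sources used here.

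The circadian clock is a feedback loop of transcription in nearly every cell. ARNTL pairs with CLOCK or its paralog NPAS2 and drives the *Per* and *Cry* genes, whose proteins then repress that pair. Targets of the pair include *Nr1d1*, which encodes REV-ERB alpha, a repressor of *Arntl*, and *Dbp*, a transcription factor that passes the rhythm on to output genes. In mouse tissues the mRNA of *Arntl* and *Npas2* peaks at a time of day roughly opposite to that of *Nr1d1*, *Dbp* and the *Per* genes, while *Clock* mRNA changes little in many tissues. The mammary gland has such a rhythm, which shifts with its developmental state.

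The loop is written in short promoter motifs. The E-box (letters CACGTG, the same on both strands) and its relative here called the E prime box (CACGTT) bind the ARNTL pairs, the D-box (TTATGNAA) binds DBP and its relatives, and the RORE binds REV-ERB and ROR proteins. These letters and the cAMP response element (TGACGTCA) were searched on both strands of the stretch from 250 bases before to 50 after each RefSeq start site (GRCm38), which was found for 9 of the 10 genes, with 13 start sites. The stretches of 5 genes are shown as examples of each motif found, with the matched letters in capitals and each line 5′ to 3′ on the strand of the gene.
Per1: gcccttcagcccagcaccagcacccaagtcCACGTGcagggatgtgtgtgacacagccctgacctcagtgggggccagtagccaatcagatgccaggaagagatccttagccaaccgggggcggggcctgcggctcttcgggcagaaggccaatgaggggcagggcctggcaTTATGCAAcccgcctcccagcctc
Per3: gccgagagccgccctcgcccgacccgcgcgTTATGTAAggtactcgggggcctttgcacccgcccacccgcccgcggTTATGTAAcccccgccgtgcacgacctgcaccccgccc
Cry1: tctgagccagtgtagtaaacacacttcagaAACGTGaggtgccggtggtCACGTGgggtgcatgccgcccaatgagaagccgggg
Nr1d1: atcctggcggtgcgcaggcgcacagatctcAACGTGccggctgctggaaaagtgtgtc
Arntl: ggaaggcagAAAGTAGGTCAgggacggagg

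The *Per1* line (chr11:69098753-69098948, plus strand) holds an E-box 166 bases before a RefSeq start site and a D-box 24 bases before the same site. This site lies inside the annotated gene, which begins at 69095217. The *Per3* line (chr4:151044786-151044900, minus strand) holds 2 D-boxes. *Cry1* (chr10:85185079-85185163, minus strand) holds an E-box and an E prime box read on the other strand, and *Nr1d1* (chr11:98775378-98775435, minus strand) holds an E prime box. *Arntl* (chr7:113207528-113207557, plus strand) holds a RORE just past one of its 2 start sites, in an annotated exon, of which only the 30 bases around the match are shown. *Cry2* also had an E prime box, and its stretch is not shown. None of the 9 genes searched had a cAMP response element, and *Per2* was not searched. The stretches of *Clock*, *Npas2* and *Dbp* held none of these letters. Among all 32851 promoters of the same length, 7.15% held an E-box, 4.68% an E prime box, 3.38% a D-box, 1.79% a cAMP response element and 0.183% a RORE. Single matches are descriptions of sequence, and binding was not tested.

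Total exonic counts were 37846008 in Ctrl basal and 38962512 in CL basal. Basal markers were abundant, and the 10 basal and myoepithelial markers summed to 19782 CPM (counts per 1000000 of the scaled library size) in Ctrl basal and 20719 in CL basal. The 16 luminal markers summed to 5537 CPM in Ctrl basal and 3392 in CL basal. Of these, 14 were lower in CL basal by 1.5-fold or more, against 11.7% of the 17356 genes tested, and the median log2 fold change was -0.87. Macrophage markers were few in both libraries (27.8 and 25.9 CPM over 12 genes, *Fcgr1* at 0 counts in Ctrl basal), and lymphoid markers held 18.2 and 17.5 CPM over 7 genes, with *Nkg7* at 0 counts in CL basal. Fibroblast markers held 269 and 218 CPM over 8 genes, endothelial markers 402 and 321 CPM over 6 and adipocyte markers 131 and 95.5 CPM over 6. The sort removed cells stained for CD45, CD31 or TER119, which mark leukocytes, endothelium and red blood cells, and the CD29hi gate was set to leave out luminal cells. RNA of endothelial and luminal genes was still present. *Pecam1*, which encodes CD31, had 5503 counts in Ctrl basal and 4266 in CL basal, and *Krt8* had 86539 and 53150. The part of these cell types in the clock gene values was not tested, and in such bulk samples fewer cells of a type cannot be told apart from less RNA per cell.

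The first question was which clock genes these cells express. Levels between genes were compared per length, as CPM per kilobase of annotated exon. Clock gene mRNA spanned a wide range, and by point value the order of the 10 genes was the same in both libraries. *Cry1*, the repressor paired with the PER proteins, was the most abundant, at 22.1 in Ctrl basal (95% exact Poisson interval 21.3 to 23.0) and 23.4 in CL basal (22.6 to 24.3). *Nr1d1* followed with 10.3 (9.76 to 10.9) and 11.5 (10.9 to 12.2) in the same order of libraries. *Per2* had 8.81 (8.42 to 9.20) and 10.7 (10.3 to 11.1), so its interval overlapped that of *Nr1d1* in CL basal and not in Ctrl basal. *Per1* and *Clock* were neighbours whose intervals overlapped in each library. *Per1* had 6.44 (6.11 to 6.79) and 8.26 (7.88 to 8.65), and *Clock* had 6.20 (5.99 to 6.41) and 8.08 (7.84 to 8.33). *Arntl* had 4.98 (4.73 to 5.25) and 5.14 (4.89 to 5.41).

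The other 4 genes were much less abundant. *Cry2* had 1.62 in Ctrl basal (1.47 to 1.79) and 1.71 in CL basal (1.55 to 1.88). *Npas2* had 0.490 (0.394 to 0.602) and 0.255 (0.188 to 0.339), *Dbp* had 0.366 (0.264 to 0.495) and 0.182 (0.113 to 0.279), and *Per3* had 0.195 (0.153 to 0.246) and 0.181 (0.141 to 0.230). The intervals of *Npas2* and *Dbp* overlapped in both libraries, and those of *Dbp* and *Per3* overlapped in CL basal only. Those of *Npas2* and *Per3* also overlapped in CL basal, so the intervals did not separate *Npas2*, *Dbp* and *Per3* there. These intervals cover counting error only. The lengths merge all annotated exons (13727 bases for *Clock* and 2993 for *Dbp*), so a gene with long alternative ends has its level understated.

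**Figure D1:**
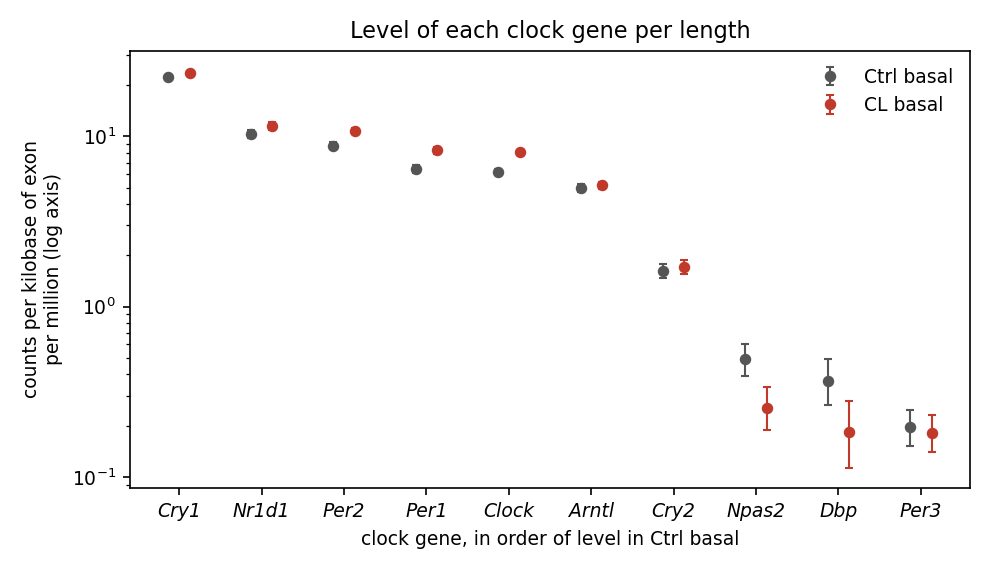
CPM per kilobase of exon (log axis) for the 10 clock genes in Ctrl basal (grey) and CL basal (red), with 95% exact Poisson intervals that cover counting error only and 1 library per group. By point value the order from *Cry1* to *Per3* is the same in both libraries, with overlapping intervals for some neighbours. *Npas2*, *Dbp* and *Per3* lie below 0.5 in each.

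The main comparison asked how clock gene expression differed between CL basal and Ctrl basal. No clock gene was higher in CL basal by 1.5-fold or more, and 2 of the 10, *Npas2* and *Dbp*, were lower by that much. Fold changes were computed after adding a prior count of 2, which draws genes with few counts toward 0. On that scale none differed by 2-fold or more, while the plain CPM of *Dbp* differed by 2.01-fold. A minimum of 20 counts over the pair of libraries was met by 17356 genes, all 10 clock genes among them. Of these genes, 11.7% were lower by 1.5-fold or more and 6.33% were higher, and 6.86% differed by 2-fold or more in either direction. Such differences were most frequent among genes with under 100 counts. Of the genes with 20 to 99 counts, the class of *Dbp*, 28.4% were lower by 1.5-fold or more, and of those with 100 to under 1000 counts, the class of *Npas2*, 12.2% were. The median log2 fold change was 0.08 over the clock genes and -0.01 over all tested genes. With 1 library per group there is no replicate check and no test of the treatment, and the intervals below compare the reads of these 2 libraries. They left out 0 for 7 of the 10 genes, against 50.6% of all tested genes. They did so for 0 of the 10, against 6.76% of all tested genes, once an assumed CV (coefficient of variation) between animals of 0.2 was added, a value not measured here.

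**Figure D2:**
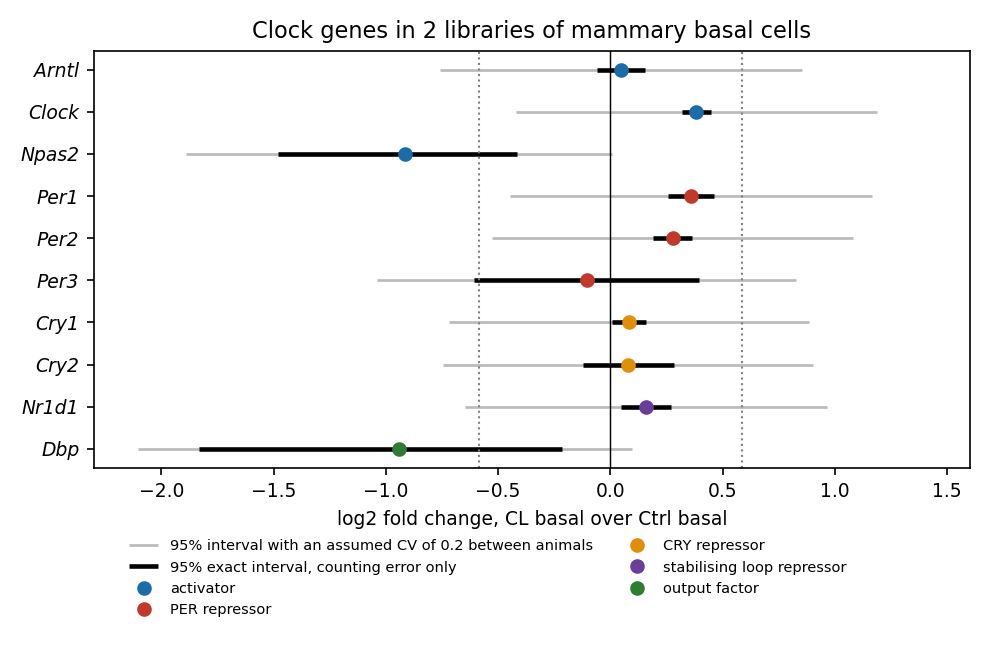
Log2 fold change of CL basal over Ctrl basal for each clock gene, coloured by role, with the 95% exact interval from counting error (black) and a wider 95% interval (grey) that adds an assumed CV between animals of 0.2. Dotted lines mark 1.5-fold. *Npas2* at -0.91 and *Dbp* at -0.94 lie past the left line, and the other 8 lie between the lines.

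Among the activators, the 3 genes went separate ways. *Arntl* (chromosome 7, 113207465 to 113314126, GRCm38), the partner that all complexes share, had 1437 counts in Ctrl basal and 1488 in CL basal. Its log2 fold change was 0.05 (95% exact interval -0.06 to 0.15), so no difference was detectable at this depth. *Arntl* shares 33 exonic bases (0.439% of its exons) with the opposite-strand gene *Gm45355*, which had 25 counts in Ctrl basal and 37 in CL basal. *Clock* (chromosome 5, 76209868 to 76304792) had 3263 and 4267 counts, the highest in the group. It was higher in CL basal by 0.38 on the log2 scale (0.32 to 0.45), a ratio of 1.30. *Npas2* (chromosome 1, 39193731 to 39363236), which can stand in for CLOCK in the pair, had 90 counts in Ctrl basal and 47 in CL basal. Its log2 fold change was -0.91 (-1.48 to -0.42), and the CPM of Ctrl basal was 1.92 times that of CL basal. Within a library the paralogs can be compared without any scaling between libraries. *Clock* was 12.7 times *Npas2* per length in Ctrl basal (95% exact binomial interval 10.3 to 15.8) and 31.7 times in CL basal (23.8 to 43.2), and these intervals did not overlap.

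Of the PER repressors, *Per1* and *Per2* were higher in CL basal and *Per3* was not distinguishable between the libraries. *Per1* (chromosome 11, 69095217 to 69109960), which also responds within minutes to hormones and growth factors, had 1391 counts in Ctrl basal and 1788 in CL basal. Its log2 fold change was 0.36 (0.26 to 0.46). *Per2* (chromosome 1, 91415982 to 91459324), the paralog most tied to the length of the daily period, had 1978 and 2404 counts and a log2 fold change of 0.28 (0.19 to 0.36). *Per1* and *Per2* kept nearly the same proportion. *Per1* was 0.731 times *Per2* per length (0.682 to 0.784) in the Ctrl basal library and 0.773 times in CL basal (0.727 to 0.823), with overlapping intervals. *Per3* (chromosome 4, 151003652 to 151044665) had 72 and 67 counts and a log2 fold change of -0.10 (-0.61 to 0.39), a wide interval that holds changes past 1.5-fold lower. Its promoter stretch above carries 2 D-boxes, the motif that DBP binds.

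The CRY repressors were nearly level. *Cry1* (chromosome 10, 85131700 to 85185064) had 2835 counts in Ctrl basal and 3010 in CL basal, a log2 fold change of 0.08 (0.01 to 0.16). *Cry2* (chromosome 2, 92403646 to 92434043) had 393 and 416 counts, also with a log2 fold change of 0.08 (-0.12 to 0.28). *Cry1* was 13.6 times *Cry2* per length in Ctrl basal (12.3 to 15.2) and 13.7 times in CL basal (12.4 to 15.2). *Cry2* shares 295 exonic bases (4.67% of its exons) with *D930015M05Rik* on the other strand, which had 82 and 116 counts, and the use of strand in counting was not given in the sources used here.

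*Nr1d1* (chromosome 11, 98767932 to 98775333), the REV-ERB alpha gene of the stabilising loop, had 1219 counts in Ctrl basal and 1364 in CL basal. Its log2 fold change was 0.16 (0.05 to 0.27). With counts halved, as for *Dbp* below, the intervals of *Nr1d1* and *Cry1* both included 0. *Nr1d1* shares 263 exonic bases (8.55% of its exons) with the opposite-strand thyroid hormone receptor gene *Thra*, which had 1242 and 1159 counts (-0.10, -0.22 to 0.01). Without strand, reads of that stretch cannot be assigned to either gene.

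*Dbp* (chromosome 7, 45705088 to 45710203), an output gene that cycles strongly in many mouse tissues, had the fewest counts of the 10, with 42 in Ctrl basal and 21 in CL basal. Its log2 fold change was -0.94 (95% exact interval -1.83 to -0.22), and the plain ratio of its CPM was 2.01 (Ctrl basal over CL basal). With counts halved, which allows for the mates of a read pair being counted separately, its interval was -2.23 to 0.13 and included no change. *Dbp* shares 539 exonic bases (18.0% of its exons) with the opposite-strand sphingosine kinase gene *Sphk2*, which was also lower in CL basal (244 and 160 counts, -0.61, -0.91 to -0.32). The part of the shared reads in the *Dbp* value was not tested.

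**Figure D3:**
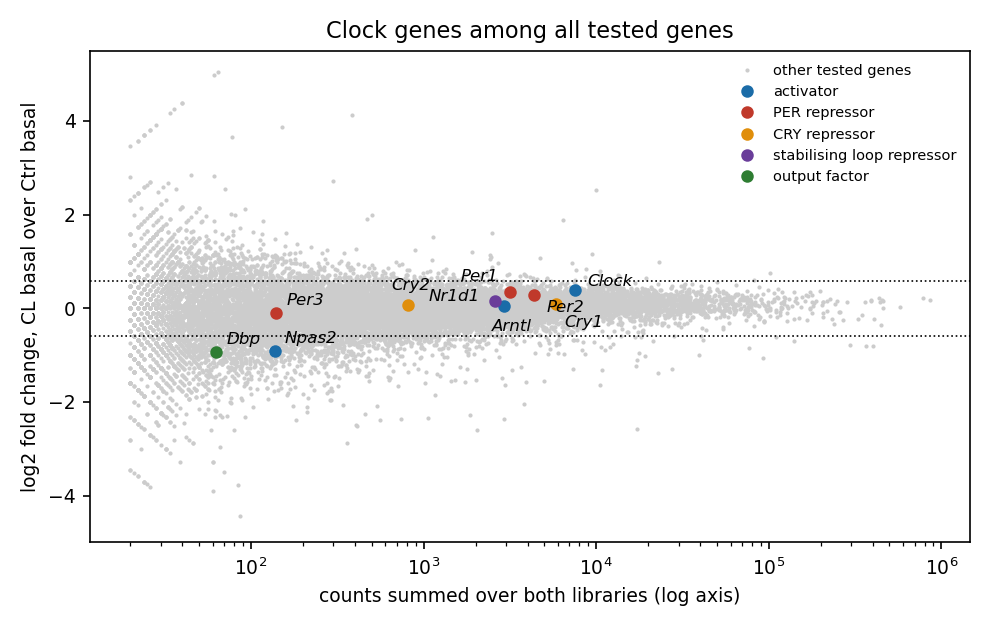
Log2 fold change of CL basal over Ctrl basal against counts summed over both libraries (log axis) for the 17356 tested genes (grey) and the 10 clock genes (coloured by role), with dotted lines at 1.5-fold. *Dbp* and *Npas2* lie in the wide part of the cloud at low counts, and the 6 clock genes above 1000 counts lie between the lines.

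The clock genes, those of opposite phase among them, were then set side by side. Ratios to *Arntl* within each library were used, which need no scaling between libraries. *Dbp* was 0.0735 times *Arntl* per length in Ctrl basal (0.0527 to 0.0998) and 0.0355 times in CL basal (0.0219 to 0.0544), intervals that overlapped slightly. *Nr1d1* was 2.07 times *Arntl* in Ctrl basal (1.92 to 2.24) and 2.24 times in CL basal (2.08 to 2.41), which also overlapped. *Per1* went from 1.29 times in Ctrl basal (1.20 to 1.39) to 1.61 times in CL basal, whose interval lay wholly above that of Ctrl basal. *Per2* went from 1.77 times (1.65 to 1.89) to 2.08 times (1.94 to 2.22), also without overlap. That gap was narrow, and the ratio intervals were not recomputed with counts halved. *Per3* was 0.0392 times *Arntl* in Ctrl basal (0.0305 to 0.0497) and 0.0353 times in CL basal (0.0272 to 0.0450), with overlap. *Npas2*, which peaks with *Arntl*, was 0.0983 times *Arntl* in Ctrl basal (0.0786 to 0.122) and 0.0496 times in CL basal (0.0363 to 0.0663). *Clock*, whose mRNA changes little in many tissues, was 1.24 times *Arntl* in Ctrl basal (1.17 to 1.33). In CL basal it was 1.57 times (1.48 to 1.67), without overlap. *Cry1* was 4.44 times *Arntl* in Ctrl basal and 4.56 times in CL basal, and *Cry2* 0.326 and 0.333 times, each with overlapping intervals.

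Whether the libraries were collected at different times of day was not tested. The 6 clock genes with at least 1000 counts had log2 fold changes of 0.05 to 0.38, and the interval of *Arntl* included 0, as did those of *Cry1* and *Nr1d1* with counts halved. Genes of that abundance (1000 to under 10000 counts) had an SD of 0.28 across genes and a 95th percentile of 0.40, above the value of each of the 6, and 1.16% of them were higher by 1.5-fold or more. *Npas2*, at -0.91, lay beyond the 5th percentile of genes with 100 to under 1000 counts (-0.85). *Dbp*, at -0.94, lay within that of genes with 20 to 99 counts (-1.59).

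Other genes of the clock were described from lists chosen by role. Of 12 further transcription factors of the loops, 11 had enough counts, with a median log2 fold change of 0.21. Of these, 2 were higher by 1.5-fold or more and none was lower by that much, against 6.33% and 11.7% of all tested genes. *Hlf*, a relative of *Dbp* in the PAR bZIP family, had 55 counts in Ctrl basal and 114 in CL basal, a log2 fold change of 1.02 (0.57 to 1.54). *Tef*, the other relative, had 351 and 452 counts (0.36, 0.16 to 0.57). By point value these relatives were higher in CL basal and *Dbp* was lower, but the interval of *Dbp* included 0 with counts halved. *Ciart*, a repressor of the ARNTL pairs, had 420 and 639 counts and a log2 fold change of 0.60 (0.42 to 0.78). *Nr1d2*, the paralog of *Nr1d1*, was level at 1287 and 1294 counts (0.00, -0.11 to 0.12). *Nfil3*, which competes with DBP for the D-box, had 3522 and 4646 counts (0.40, 0.33 to 0.46). *Bhlhe40*, another repressor at the E-box, had the highest level per length of this list, 71.4 in Ctrl basal and 82.9 in CL basal, and differed by 0.21 (0.18 to 0.25). Among others, *Arntl2* (-0.47), *Bhlhe41* (-0.29) and *Cipc* (-0.23) were lower, and *Rora* (0.37) was higher. *Tef*, *Nr1d2*, *Nfil3*, *Arntl2*, *Bhlhe41*, *Cipc* and *Rora* were named after their values were seen.

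Genes that set the stability of PER and CRY proteins lay on both sides of 0. None of the 10 tested, kinases, ubiquitin ligases and deubiquitinases, was past 1.5-fold in either direction, and their median was 0.03. Of all tested genes 18.0% were, but only 3.45% of those with 1000 to under 10000 counts and 2.52% of those with at least 10000. The deubiquitinase gene *Usp2* had a log2 fold change of 0.47 (0.32 to 0.62) and the casein kinase gene *Csnk1e* one of -0.29 (-0.35 to -0.24), both named after their values were seen. *Csnk1a1*, a casein kinase and the most abundant of them per length, had 17412 counts in Ctrl basal and 18084 in CL basal (0.05, 0.02 to 0.08). The 6 rhythmic output genes had a median of 0.20, again with none past 1.5-fold, against the same shares of all genes. *Nampt*, which makes a precursor of NAD, was the most abundant of these per length, with 2951 and 3576 counts (0.27, 0.20 to 0.34).

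*Per1* and *Per2* also answer to signals other than the clock, so glucocorticoid and early response genes were set beside them. The 12 early response genes summed to 4083 CPM in Ctrl basal and 5024 in CL basal, and 11 of them had log2 fold changes above 0, as did 8370 of the 17356 tested genes. Their median was 0.24. All genes with 1000 to under 10000 counts had a median of 0.03, and those with at least 10000 counts one of 0.09. The list holds genes of both classes. None of the 12 was past 1.5-fold in either direction, against 18.0% of all tested genes and 3.45% and 2.52% in those classes. *Fos*, the most abundant per length, differed by 0.41 (0.38 to 0.43), with 21578 and 28699 counts. The 10 glucocorticoid response genes summed to 1349 and 1600 CPM, with a median of 0.17. Of these, 2 (against 6.33% of all tested genes) were higher by 1.5-fold or more, *Zbtb16* (42 and 95 counts, 1.14, 0.64 to 1.73) and *Ddit4* (1764 and 2661 counts, 0.59, 0.50 to 0.68), while *Fkbp5* was lower (1046 and 921 counts, -0.19, -0.32 to -0.06) and was named after its value was seen. *Mt2*, a metallothionein and the most abundant of the list per length, differed by 0.30 (0.25 to 0.35). The part of these responses in the *Per1* and *Per2* values was not tested.

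**Figure D4:**
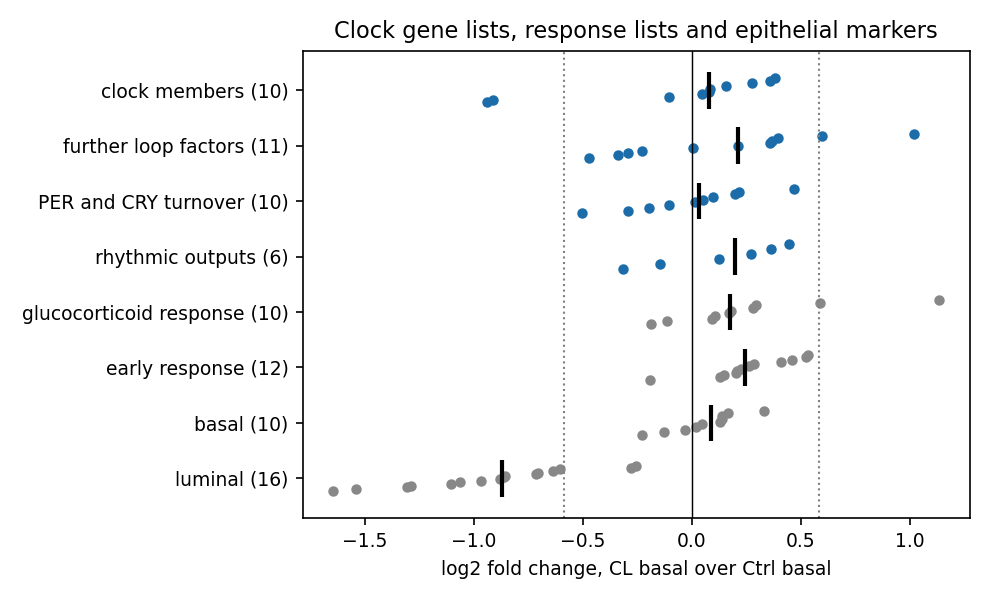
Log2 fold change of CL basal over Ctrl basal for each tested gene (points) of 4 clock lists (blue) and of response and epithelial marker lists (grey), with the number of tested genes in brackets, the median as a black bar and dotted lines at 1.5-fold. The clock list medians lie between 0.03 and 0.21, and the luminal marker median lies at -0.87.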

How the data were processed

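RNA of sorted mammary basal cells was sequenced in 1 library per group. The authors deposited raw exonic read counts for each gene, laid out as featureCounts writes them, and the submitters' processing notes name GRCm38 and mm10. The aligner, strand setting, annotation release and any removal of PCR copies were not given in the sources used here. All 10 clock genes had the same start and end in GENCODE M21 (GRCm38). The deposited ratio and log2 ratio columns are the authors' own comparison and were not used. Low counts were mostly even (between 1 and 20, 67.9% of the Ctrl basal values and 68.7% of the CL basal values), as when mates of a pair are counted separately, so intervals are too narrow.

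Counts were scaled by effective library sizes (TMM, edgeR 4.0.16, R 4.3.3). Log2 fold changes used a prior count of 2, and a gene needed 20 counts over the pair of libraries to be set against a threshold of 1.5-fold. The 95% intervals were exact (Clopper-Pearson) binomial intervals of the CL basal share of each gene, or exact Poisson intervals for levels (scipy 1.17.1, Python 3.11.15), and cover counting error only. A count of 0 allows up to 3 counts, 0.078 CPM. The procedure was tested on simulated data with known answers. Those data held Poisson counting error only, so the test did not cover mates counted separately or variation between animals. No spread between animals can be estimated, so no p-value is given. Promoter sequences came from RefSeq (GRCm38.p6).

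The genes and lists were chosen with earlier results of these data known. Named were the 10 clock genes, genes that share exons with them and, from each further clock or response list, genes past 1.5-fold with at least 100 counts and the gene with the highest level per length in Ctrl basal. Other clock and response genes are marked in the text, and the cell type markers *Fcgr1*, *Nkg7*, *Pecam1* and *Krt8* were also named after their values were seen. Alternatives were other scalings (total counts, DESeq2 1.42.0 size factors, upper quartile), prior counts of 0.5 and 5, other filters, thinning of the deeper library, counts halved, removal of the trend on mean expression, a 2-fold threshold and an assumed CV between animals of 0.2.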

Additional observations from a re-analysis of the deposited data

How the results depend on the processing

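*Npas2* and *Dbp* were the 2 clock genes lower by 1.5-fold or more under each scaling, each prior count, no filter, thinning, counts halved and trend removal, with log2 fold changes of -0.95 to -0.80 and -0.99 to -0.83. With at least 100 counts the number was 1, since *Dbp* was no longer tested, and at 2-fold it was 0. Of all tested genes, 21.3% were lower and 13.3% higher by 1.5-fold or more without a filter, 7.14% and 2.78% with at least 100 counts, and 4.79% and 2.07% were past 2-fold. Of 99 member fold changes under alternatives, 98 stayed within the main interval, and *Clock* moved to 0.32 without the trend on mean expression. The interval left out 0 for 7 of 10 clock genes with counts as deposited (50.6% of all tested genes) and for 0 with an assumed CV of 0.2 (6.76%). With counts halved it did so for 4, and the share of all tested genes was not computed for that setting. No paired analysis was possible because there was only 1 sample on either side. Low counts limit *Dbp*, *Npas2* and *Per3* most. The alternatives were run for the clock genes and all tested genes, and not for the other lists. In those lists *Ciart* (0.60) and *Ddit4* (0.59) lay just past 1.5-fold, so their calls may depend on the scaling.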
